A study of Mus musculus with 2 samples.

Results

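The 10 genes described here encode 6 keratins and 4 proteins of epithelial adhesion and junctions, found by their symbols among the 31054 gene rows of 2 single-cell RNA libraries. The keratins comprised 4 of the luminal layer of the mammary duct (Krt7, Krt8, Krt18 and Krt19) and 2 of its basal layer (Krt5 and Krt14). The other members were Epcam, an adhesion molecule of epithelial surfaces, Cdh1, which encodes E-cadherin, and the claudins Cldn3 and Cldn4. Each member matched 1 row in both libraries.

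Both libraries came from mice of the inAd-Chaser-mTmG genotype on a strain labelled C57BL/6. These mice carry Adiponectin-rtTA, TRE-Cre and the Rosa26RmT/mG reporter, so that under doxycycline the adiponectin promoter drives Cre and switches a cell from membrane tdTomato to membrane EGFP. One library held cells of a tumour labelled Met-1 xenograft, called the Met-1 transplant here, and the other cells of a PyMT breast tumour, in each case sorted as EGFP+ tdTomato-. The sample label is followed here, although the design text of the series gives EO771 for the implanted cells. The age of the mice, the number pooled and the timing of doxycycline are not given in the sources used here. The study asked which cells descend from adipocytes in a breast tumour. With 1 library per tumour, differences between the tumours carry no replicate check and no test was possible. The intervals given are 95% intervals and cover counting error only. What is said of a tumour below describes the sorted cells of its library, not the tumour at large.

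Keratins are the intermediate filament proteins of epithelial cells and assemble as pairs of 1 type II and 1 type I chain. Krt8 (type II) pairs with Krt18 (type I) in simple and luminal epithelium, where Krt7 and Krt19 add to the pair, and Krt5 (type II) pairs with Krt14 (type I) in basal and myoepithelial cells. E-cadherin forms adherens junctions and claudins form the strands of tight junctions, so that these genes together mark a cell as epithelial and place it in the luminal or the basal layer.

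In build mm10, Krt7 (ENSMUSG00000023039) lies at chr15:101412403-101427806, Krt5 (ENSMUSG00000061527) at chr15:101707069-101712905 and Krt8 (ENSMUSG00000049382) at chr15:101996711-102004342. The type I gene Krt18 (ENSMUSG00000023043) neighbours Krt8 at chr15:102028216-102032026, apart from the type I genes Krt19 (ENSMUSG00000020911, chr11:100140810-100145926) and Krt14 (ENSMUSG00000045545, chr11:100203162-100207510). Epcam (ENSMUSG00000045394) lies at chr17:87635979-87651127 and Cdh1 (ENSMUSG00000000303) at chr8:106603350-106670247. The 2 claudin genes share a stretch of chromosome 5, with Cldn4 (ENSMUSG00000047501) at chr5:134945123-134946934 and Cldn3 (ENSMUSG00000070473) at chr5:134986214-134987476.

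The 250 bases before the start of Krt8 (chr15:102004343-102004592, minus strand), Krt18 (chr15:102027966-102028215, plus strand) and Epcam (chr17:87635729-87635978, plus strand) are shown because Krt8 and Krt18 varied together from cell to cell while Epcam was the one member more than 2-fold higher in the Met-1 transplant. They come from RefSeq on GRCm38.p6, are written 5′ to 3′ on the strand of the gene, and carry in capitals each E-box CAGGTG, a motif bound by repressors of the Snail and Zeb families, and each GC box GGGCGG, a motif bound by Sp family factors, on either strand (CACCTG and CCGCCC in reverse).
Krt8: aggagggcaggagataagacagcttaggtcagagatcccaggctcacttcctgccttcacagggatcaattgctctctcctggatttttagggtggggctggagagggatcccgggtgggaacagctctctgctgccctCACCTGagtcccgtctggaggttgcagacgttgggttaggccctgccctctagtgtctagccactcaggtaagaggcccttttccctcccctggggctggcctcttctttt
Krt18: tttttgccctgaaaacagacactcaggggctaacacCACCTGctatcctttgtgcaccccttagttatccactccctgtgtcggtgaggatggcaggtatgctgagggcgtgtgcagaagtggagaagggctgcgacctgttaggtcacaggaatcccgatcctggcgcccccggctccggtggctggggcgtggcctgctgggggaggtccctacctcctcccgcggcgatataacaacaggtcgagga
Epcam: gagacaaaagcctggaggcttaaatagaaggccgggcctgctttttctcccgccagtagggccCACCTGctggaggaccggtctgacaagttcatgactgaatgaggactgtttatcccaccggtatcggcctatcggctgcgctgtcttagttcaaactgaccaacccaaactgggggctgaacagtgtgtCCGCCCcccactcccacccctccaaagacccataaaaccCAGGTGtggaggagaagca
Sequences were found for 8 members, and for 7 of them the stretch ends at the gene start given above. That of Krt14 lies inside the gene's span and was not used. Among the 7, the E-box stood once in Krt7, Krt8, Krt18, Krt5 and Cldn4, at 2 places in Epcam, and nowhere in Cldn3. Over all 32851 promoters of this length, 17.2% held it. The GC box (32.7% of all promoters) occurred in Krt7, Epcam, Cldn3 and Cldn4. The Grainyhead motif AACCNGTT (1.79% of all promoters) and TATAAA (12.4%) had 0 matches in the 7. A match here is a description of letters, not of a bound site.

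Cells were typed without the members. A cell was called epithelial when UMIs (unique molecular identifiers, 1 per captured RNA molecule) of at least 3 of 21 other epithelial genes were present and when these were at least 2 times as many different genes as of any other type list. The rule found 29 epithelial cells among the 2119 kept cells of the transplant (1.37%, 0.918 to 1.96) and 86 among 589 of the PyMT tumour (14.6%, 11.8 to 17.7). Both sets held a median of 10 different epithelial markers per cell, with 3 to 19 in the first and 3 to 18 in the second. Epithelial cells had a median of 10750 UMIs (580 to 107951) in the Met-1 transplant and 17222 UMIs (632 to 66120) in the PyMT tumour. No endothelial cell was found in either library, and the libraries shared 0 barcodes. The sort asked for EGFP protein, and EGFP RNA was present in 69.0% of the Met-1 and 64% of the PyMT epithelial cells, at 204 and 1832 CPM (UMIs of the gene per 1000000 UMIs of the cells named), with up to 78 UMIs in 1 Met-1 cell.

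Fibroblast markers stood at 1983 CPM in the Met-1 epithelial cells, with up to 8 different markers in 1 cell and 1 of the list at 0, against 27.0 CPM in the PyMT epithelial cells. A PyMT cell held at most 4 different fibroblast markers. Macrophage markers stood at 385 CPM (0 to 4 different markers a cell) and 235 CPM (0 to 5). The part of either list in the members' values was not tested. Most member RNA lay in epithelial cells, which held 80.5% of the 6732 member UMIs of the Met-1 transplant and 91.5% of the 8978 of the PyMT tumour. UMIs are not scaled by gene length, so levels are compared between libraries for 1 gene and not between genes.

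Luminal keratins were the main keratins of the sorted epithelial cells of both tumours when summed over cells. Krt8 ranged over the 29 Met-1 epithelial cells from 0 to 4787 CPM with a median of 713, and over the 86 PyMT cells from 0 to 18256 CPM with a median of 862. Summed over cells this gave 1214 CPM (1136 to 1295) and 1483 CPM (1421 to 1546). The cells of both tumours overlapped over most of this range, and the ratio of Met-1 over PyMT was 0.818 (0.757 to 0.884).

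Krt18, the partner of Krt8, ranged from 0 to 4979 CPM with a median of 1232 in the Met-1 cells and from 0 to 17107 CPM with a median of 867 in the PyMT cells. The sums were 1947 CPM (1849 to 2049) and 1485 CPM (1424 to 1549), a ratio of 1.31 (1.23 to 1.40). Summed Krt18 was thus higher in the Met-1 transplant and summed Krt8 in the PyMT tumour, both within 2-fold. The log2 ratio of Krt18 (of CPM + 10) was 0.39 over summed UMIs and -0.24 when each cell counted the same, so its direction depended on how cells were weighted.

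The balance within the pair differed between the tumours. Krt8 made up 38.4% (36.4 to 40.4) of the Krt8 and Krt18 UMIs of Met-1 epithelial cells and 49.95% (48.5 to 51.4) of those of PyMT cells. In the 19 Met-1 cells with at least 10 UMIs of the pair, the share ran from 17.9% to 63.6% with a median of 34.1%. In the 74 such PyMT cells it ran from 15.0% to 95.2% with a median of 51.4%. Most Met-1 cells (12 of 19) lay below an even share, while the PyMT cells fell on both sides, 38 above, 31 below and 5 at 50%. A share within a cell does not depend on the scaling of the libraries, although both ranges overlap. Reads from near-identical copies of either gene elsewhere in the genome are uncertain.

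Krt7 and Krt19, the luminal keratins that vary most between luminal cells, were carried by fewer cells. Krt7 was present in 15 of 29 Met-1 cells, with 0 to 385 CPM and a median of 17.8, and in 27 of 86 PyMT cells, with 0 to 1582 CPM and a median of 0. The summed values were 106 CPM and 70.8 CPM, a ratio of 1.49 (1.10 to 2.02). One PyMT cell held 57 of the 105 PyMT UMIs of Krt7, and without the richest cell of each library the ratio became 2.91.

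Krt19 was present in 17 of 29 Met-1 cells (0 to 2106 CPM, median 33.7) and in 17 of 86 PyMT cells (0 to 10142 CPM, median 0). The sums of 278 CPM and 292 CPM were nearly equal, with a ratio of 0.950 (0.802 to 1.12). The same single PyMT cell, with 66120 UMIs, held 283 of 433 PyMT UMIs of Krt19 (65.4%). Without the richest cell of each library the ratio was 2.03, so the near equality of Krt19 rested on that cell. This cell also held 590 UMIs of Krt8, 422 of Krt18, 139 of Cldn4 and 42 of Cdh1. It had more member UMIs than any other cell of its library.

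**Figure D1:**
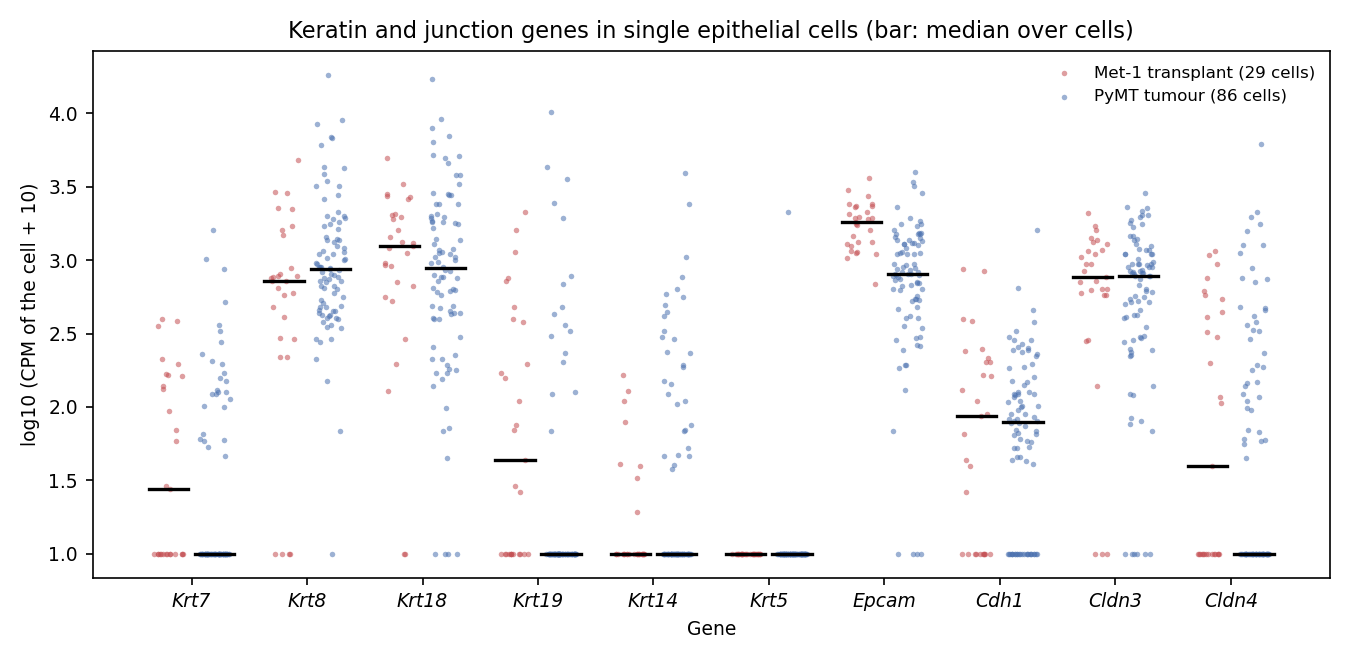
Level of each of the 10 genes in every epithelial cell, as log10 of (CPM of that cell + 10), for 29 cells of the Met-1 transplant (red) and 86 cells of the PyMT tumour (blue); bars are medians over cells and points at 1.0 are cells with 0 UMIs. Epcam sits higher in the Met-1 cells, Krt14 reaches higher in PyMT cells, and Krt5 appears in 1 cell.

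Shares of cells with a UMI depend on depth, so each cell was also set to 1000 UMIs, which left out 2 cells of each library. At that depth Krt18 is expected in 68.1% of Met-1 and 57.8% of PyMT epithelial cells, against 93.1% and 95.3% at full depth. Krt8 is expected in 51.3% and 60.9%, against 86.2% and 98.8%, and Krt19 in 19.8% and 9.70%, against 58.6% and 19.8%. The order of Krt18 turned with depth and that of Krt8 and Krt19 did not. For comparison, the fibroblasts of the Met-1 transplant, which should lack these genes, showed Krt18 in 2.73%, Krt8 in 0.909% and Krt19 in 3.64% of 220 cells at a median of 15793 UMIs.

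Basal keratin RNA was scarce in the Met-1 transplant and unevenly spread in the PyMT tumour. Krt14, the type I keratin of the basal layer, ranged from 0 to 155 CPM over the Met-1 epithelial cells and from 0 to 3906 CPM over the PyMT cells, with a median of 0 in both. It was present in 8 of 29 Met-1 cells with 14 UMIs in all, and in 31 of 86 PyMT cells with 249 UMIs. The summed values were 18.5 CPM (10.1 to 31.1) and 168 CPM (148 to 190), so that Krt14 was 9.08-fold higher in the PyMT tumour (5.31 to 16.8). Without the richest cell of each library the difference was 7.83-fold.

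Krt5, the partner of Krt14, had 0 UMIs in the Met-1 epithelial cells and 49 UMIs in the PyMT cells, all in 1 cell. Against a floor of 3 counts over the Met-1 epithelial cells, this was 8.33-fold higher in the PyMT tumour. The counting interval of the ratio starts at 6.53-fold, and the difference describes that 1 cell. Krt5 had too few UMIs (under 50) to enter the comparison. The cell held 23295 UMIs in all, of which 91 were Krt14, 49 Krt5, 18 Krt19, 11 Krt8, 5 Krt18 and 30 Epcam. It also held 54 of the 63 UMIs of Krt17, a further basal keratin, 25 of the 27 of Acta2, the smooth muscle actin of myoepithelial cells, and 4 of 4 of both Col17a1 and Dsc3, hemidesmosome and desmosome genes. Its EGFP RNA was 1 UMI. Thus 1 cell carried both basal keratins, while the other cells with Krt14 carried no Krt5. Other processing settings gave 13 ratios for Krt5 and 14 for Krt14. A gene with 0 UMIs in the epithelial cells of both libraries gives no ratio. The cell with Krt5 was thus not kept as epithelial under every setting.

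By keratin use per cell, 20 of 29 Met-1 epithelial cells (69.0%, 49.2 to 84.7) carried luminal keratin UMIs alone, 8 (27.6%, 12.7 to 47.2) carried luminal and basal ones and 1 carried neither. Of the 86 PyMT cells, 55 (64%, 52.9 to 74.0) carried luminal keratins alone and 31 (36.0%, 26.0 to 47.1) carried both. A cell with basal keratin UMIs alone occurred in neither library. At 1000 UMIs per cell a basal keratin is expected in 1.94% of the Met-1 and 9.73% of the PyMT cells, and a luminal one in 84.5% and 79.4%. At full depth the 2 tumours thus had overlapping intervals for cells with any basal keratin.

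The amount differed more than the number of cells. Basal keratins made up 14 of 2695 keratin UMIs in the Met-1 epithelial cells (0.519%, 0.284 to 0.870) and 298 of 5236 in the PyMT cells (5.69%, 5.08 to 6.35). The cell with Krt5 gave 140 of those 298 UMIs, and without the richest basal cell of each library the shares were 0.380% and 3.12%. Basal keratins exceeded 50% of the keratin UMIs in 0 Met-1 and 6 PyMT cells, and 20% in 0 and 12. No minimum of keratin UMIs was set here. Of the 6 cells, 1 held 7 basal and 2 luminal UMIs and 1 held 9 and 2. Among the 12, 1 cell held 1 basal and 3 luminal UMIs. Met-1 cells with a basal keratin therefore held it as a trace beside the luminal ones, and some PyMT cells held it as their main keratin.

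**Figure D2:**
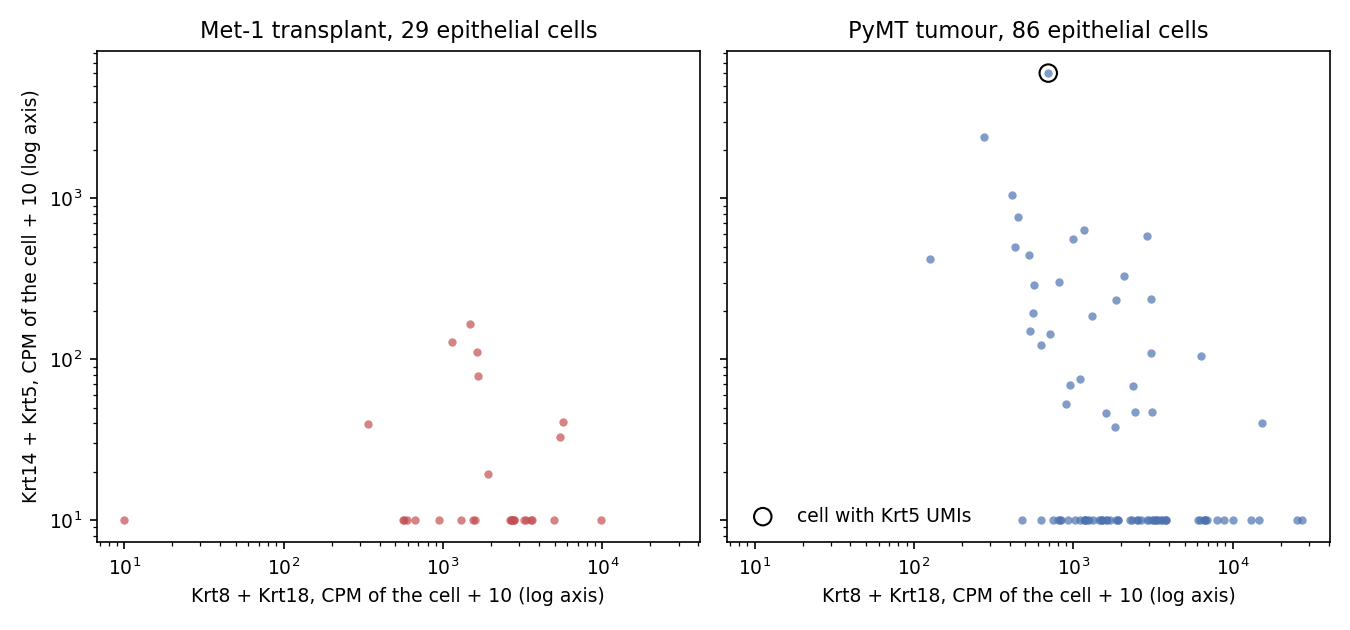
Basal keratins (Krt14 + Krt5) against luminal Krt8 + Krt18 in each epithelial cell, both as CPM of the cell + 10 on log axes, with the Met-1 transplant (29 cells) on the left and the PyMT tumour (86 cells) on the right; points on the lowest line have 0 basal UMIs and the ring marks the 1 cell with Krt5 UMIs. PyMT cells with the most basal keratin lie toward the lower Krt8 + Krt18 values, and the 8 Met-1 cells with Krt14 stay at or below 155 CPM of it.

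Within the PyMT tumour, more Krt14 went with less of the luminal keratins and of Cldn4. The 55 cells with 0 Krt14 UMIs had a median of 2499 CPM of Krt8 and Krt18 together, the 21 cells with 1 to 4 UMIs a median of 1827, and the 10 cells with 5 or more a median of 478. These ranges are cut from 1 gene's UMIs, 4 cells lay at 4 or 5 UMIs, and the median depths were 11763, 20137 and 23208 UMIs. The cells with more Krt14 were thus also the deeper ones, and the part of depth was not tested.

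In the 10 cells with 5 or more Krt14 UMIs, Krt18 summed to 173 CPM against 1707 CPM in the cells without Krt14, and Krt8 to 365 against 1426 CPM. Cldn4 had 0 UMIs in all 10 of them and 380 CPM in the 55 others. Cldn3 stood at 267 against 919 CPM, Cdh1 at 32.8 against 119 CPM and Epcam at 501 against 1068 CPM. These 6 genes were thus lower in both sum and median in the cells with the most Krt14, while Krt7 and Krt19 had a median of 0 in both ranges. All 18 Krt19 UMIs of the 10 cells lay in the cell with Krt5. The milk genes did not move one way, with 6 of 10 at a lower and 4 at a higher summed CPM, some of them from few UMIs. The casein Csn3 stood at 1115 against 18054 CPM, and the casein Csn1s1 at 436 against 166 CPM. EGFP stood at 3575 against 1373 CPM. PyMT macrophages, which should lack Krt14, held 3.72 CPM of Krt14, in 4 of 171 cells (2.34%) at a median of 6682 UMIs.

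A second pattern among PyMT cells followed Krt19. The 17 cells with a Krt19 UMI had 266 CPM of Krt7, 1061 CPM of Cldn4 and 6050 CPM of Krt8 and Krt18 together, while the 69 without had 20.4, 136 and 2172 CPM. The cell of 66120 UMIs is among the 17 and held 57 of their 81 Krt7 UMIs. Without it, a setting added after the data were seen, the other 16 had 101 CPM of Krt7, 772 CPM of Cldn4 and 3482 CPM of Krt8 and Krt18 together. Cldn4 was carried by few cells, 3 of the 17 holding 260 of its 323 UMIs. The medians of Krt8 and Krt18 together, on which that cell has little weight, were 2653 CPM (560 to 27383) and 1602 CPM (117 to 25513), with wide overlap.

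Across cells (log values of counts scaled to 10000, cells of 1 library, sharing their depth differences), Krt8 and Krt18 had a Pearson r of 0.49 over 29 Met-1 and 0.66 over 86 PyMT cells. Krt8 went with Krt19 at 0.61 and 0.44, Krt18 with Cldn4 at 0.58 and 0.51, and Krt7 with Krt19 at 0.37 and 0.53. In PyMT cells Krt14 had an r of -0.43 with Krt18, -0.38 with Krt8, -0.33 with Cldn3 and -0.31 with Cldn4. These values describe the cells measured and carry no test.

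Among the adhesion and junction members, Epcam differed most between the tumours. It ranged from 682 to 3602 CPM with a median of 1802 over the Met-1 epithelial cells, all 29 of which carried it, and from 0 to 3975 CPM with a median of 799 over the PyMT cells. Summed, it stood at 2058 CPM (1957 to 2163) and 839 CPM (793 to 887), 2.45-fold higher in the Met-1 transplant (2.28 to 2.64). The ranges of single cells overlapped, and no Met-1 cell was as low as the lowest PyMT cells. At 1000 UMIs per cell Epcam is expected in 84.0% of Met-1 and 55.2% of PyMT cells, against 100% and 95.3% at full depth. When each cell counted the same, the log2 ratio was 0.91 in place of 1.28, which is under the 2-fold limit.

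E-cadherin RNA did not separate the tumours. Cdh1 ranged from 0 to 862 CPM (median 77.4) over Met-1 cells and from 0 to 1582 CPM (median 69.0) over PyMT cells. The sums of 137 CPM and 118 CPM gave a ratio of 1.16 (0.905 to 1.49), whose interval includes 1.

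The claudins differed by less than 2-fold. Cldn3 ranged from 0 to 2094 CPM (median 754) in Met-1 cells and from 0 to 2861 CPM (median 772) in PyMT cells, with sums of 937 and 725 CPM and a ratio of 1.29 (1.17 to 1.42). Cldn4 ranged from 0 to 1145 CPM (median 29.7) and from 0 to 6143 CPM (median 0), with sums of 467 and 326 CPM and a ratio of 1.43 (1.24 to 1.65). Cldn3 was present in most cells (26 of 29 and 80 of 86), while Cldn4 was present in 15 of 29 and 40 of 86. Weighting every cell the same brought the log2 ratio of Cldn3 from 0.37 to 0.06 and that of Cldn4 from 0.51 to -0.20.

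Genes were called apart between the tumours at a 2-fold ratio of (CPM + 10), among those with at least 50 summed UMIs in 1 library. By this rule 1 of 9 members measured was higher in the Met-1 transplant (Epcam) and 1 was lower (Krt14), and 7 lay within 2-fold. Of all 4138 genes measured, 6.33% were higher and 7.06% lower, 13.4% in either direction, and 2 of 9 members beside that background is no result about the group. The median log2 ratio of the 9 members was 0.37, against -0.05 over all genes measured and 0.12 over 2208 genes that reached 50 UMIs in each library.

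**Figure D3:**
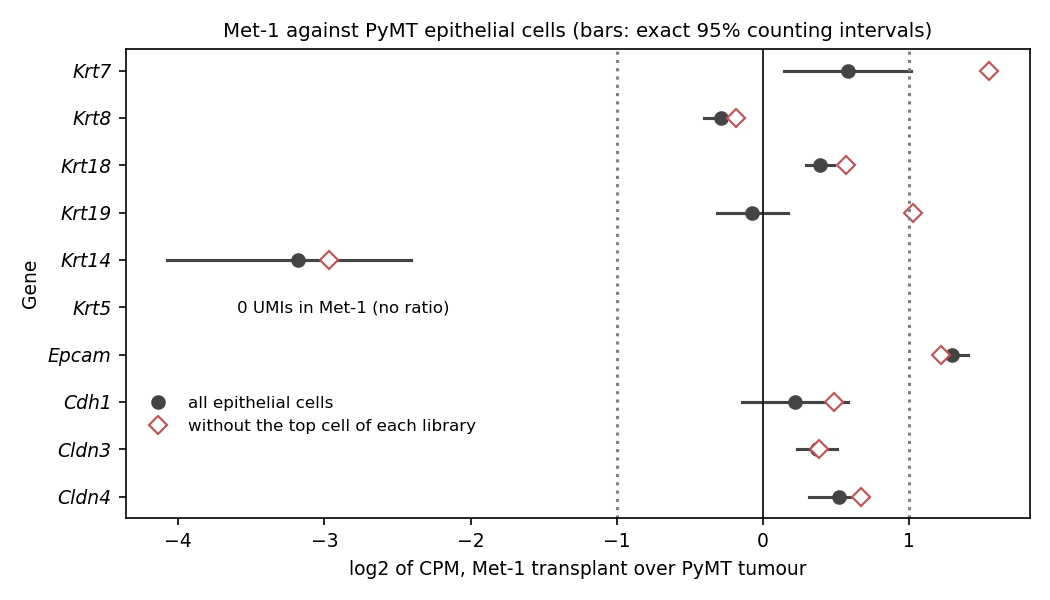
Log2 ratio of summed CPM, Met-1 transplant over PyMT tumour, for the 10 genes in epithelial cells; filled points use all epithelial cells with exact 95% counting intervals as bars, open diamonds leave out the richest cell of each gene in each library, and dotted lines mark 2-fold. Epcam and Krt14 lie beyond 2-fold both with and without that cell, while Krt7 and Krt19 move past or to the line without it; Krt5 has no ratio.

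The other genes of these pathways, taken from whole lists and not picked by how they moved, were measured at 20 or more UMIs in either library, where 6.49% of 7349 genes were higher in the Met-1 transplant and 5.51% lower. Of 3 further keratins, 0 were higher and 1 was lower: Krt17 stood at 1.32 against 42.5 CPM, 54 of its 63 PyMT UMIs being those of the cell with Krt5. Krt10, a keratin of differentiated epidermis, stood at 13.2 against 25.6 CPM and Krt23 at 68.7 against 37.8 CPM.

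Tight junction genes were measured for 15 of the list, 3 higher, 1 lower and 11 within 2-fold, with a median log2 ratio of 0.11. The scaffold genes Tjp1 (ZO-1) and Cgnl1 (paracingulin) were 4.41-fold (2.68 to 7.46) and 3.68-fold (2.65 to 5.16) higher in the Met-1 transplant. F11r, which encodes the junctional adhesion molecule JAM-A, was 2.26-fold lower (1.69 to 3.06), and Cldn8 stood at 22.5 against 36.4 CPM.

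Of 8 adherens junction genes 1 was higher and 0 lower: Afdn, the afadin scaffold, was 3.41-fold higher (2.46 to 4.75). The nectin gene Nectin4 had a ratio of 2.0 and stayed within the limit on the CPM + 10 scale. The catenins that bind E-cadherin, Ctnnb1 and Ctnnd1, stood at 176 against 221 and 76.7 against 104 CPM. Of 7 desmosome genes 1 was higher, Dsg2, a desmosomal cadherin, 2.38-fold (1.59 to 3.57). Desmoplakin, Dsp, had a ratio of 0.500 within the limit on the CPM + 10 scale, and Dsc2 and Pkp3 had ratios of 1.58 and 0.814.

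Luminal genes did not move one way: 2 of 9 were higher and 1 lower. Kit and Aldh1a3, which mark luminal progenitors, were 4.39-fold (3.24 to 6.00) and 6.61-fold (2.92 to 16.8) higher in the Met-1 transplant, the latter with 27 UMIs in 3 cells. Foxa1, a factor of hormone-sensing luminal cells, had 0 Met-1 and 23 PyMT UMIs. It was 3.91-fold lower against the floor of 3 counts over the Met-1 epithelial cells, and the counting interval starts at 2.93-fold. Trf, which encodes transferrin, stood at 3601 against 7094 CPM.

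Among 7 milk genes 2 were higher and 3 lower. Wfdc18 was 3.03-fold and Xdh 2.52-fold higher in the Met-1 transplant, while Csn1s1 was 14.5-fold (7.77 to 30.6) and Btn1a1 8.80-fold (3.29 to 33.2) higher in the PyMT tumour. Totals without the milk genes left both calls among the members in place.

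Basal genes were measured for 5, 1 higher and 2 lower. The higher one was Acta2, of which 61 of 64 Met-1 UMIs lay in 1 cell. Krt17 and Lamb3, a laminin chain of the basement membrane, were lower, and Sfn stood at 172 against 192 CPM. Of 4 genes of mesenchymal transition, Fn1 was higher with 57 of 63 Met-1 UMIs in 1 cell. Vim was 4.14-fold lower (3.11 to 5.62), with 43 of 53 Met-1 UMIs in 1 cell, and Twist1 4.80-fold lower (1.92 to 15.5). Snai1, a repressor of Cdh1, stood at 21.2 against 17.5 CPM.

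The genes most like the summed luminal keratins over 12 sums of type and library (Pearson r of log2 of CPM + 10, 11925 genes compared) were Plet1, Gm20219, Lgals7, Lalba and Timd2, with r from 0.97 to 0.98. Those most like Krt14 over 115 epithelial cells, centred within library, were Fads1 (0.51), Igfbp4 (0.50), Cbr2 (0.50), Ddt (0.48) and Lmo1 (0.47). Without the cell richest in Krt14, Lmo1 dropped to 0.30, and the others stood at 0.50 to 0.57. Among the 12 sums, only the epithelial sum of each library was high in luminal keratins. A gene largely confined to epithelial cells therefore ranks high here, whatever its variation among those cells. The sums share their library and the cells share their depth differences.

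Outside the epithelial cells, member RNA was low in most types but followed its own pattern in lymphocytes. In the Met-1 transplant all 10 members together stood at 13.8 CPM in 220 fibroblasts, 9.18 in 64 mural cells, 24.3 in 246 B cells and 31.0 in 752 macrophages or monocytes, against 7162 CPM in epithelial cells. In 482 T or NK cells they stood at 170 CPM (158 to 183). In the PyMT tumour the values were 57.4 CPM in 171 macrophages, 70.7 in 176 neutrophils and 136 in 47 T or NK cells, against 5540 CPM in epithelial cells. RNA of single members per type is shown by the plot of CPM by cell type.

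**Figure D4:**
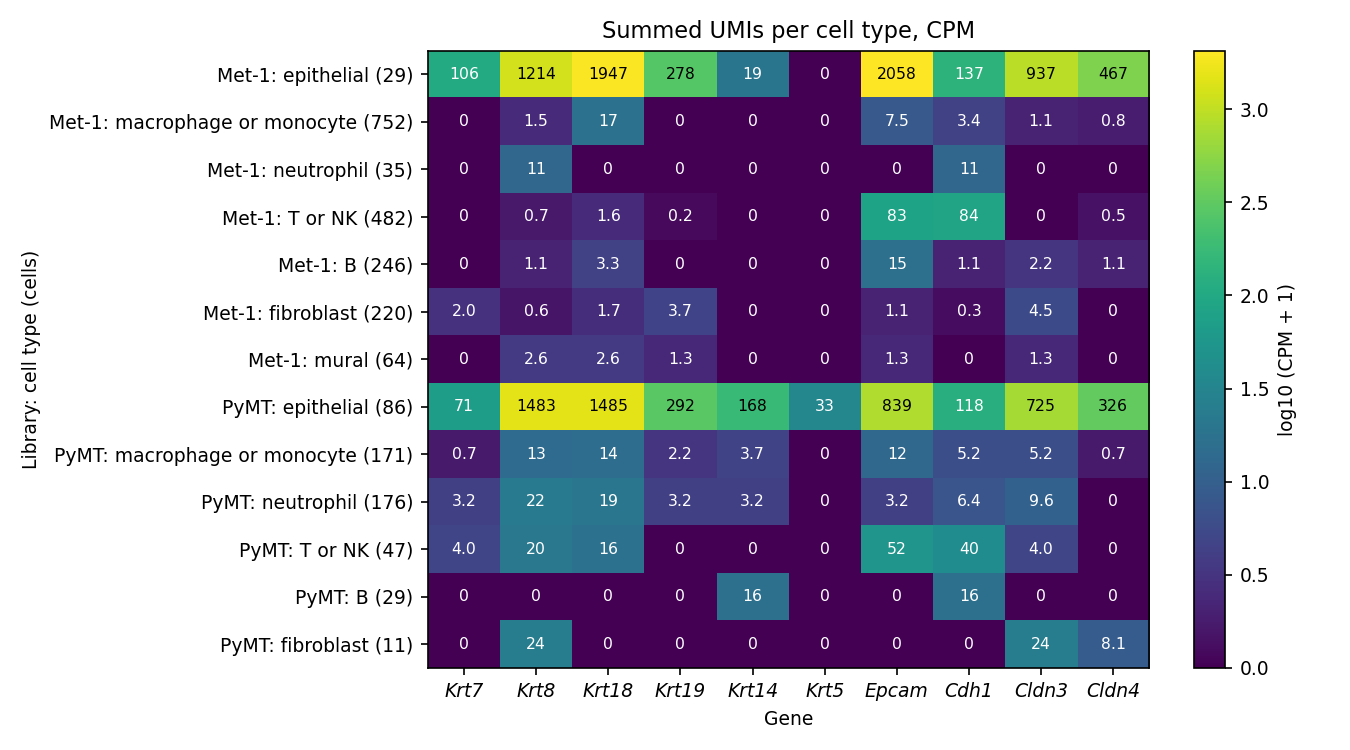
Summed CPM of each of the 10 genes (columns) in each cell type of each library (rows, number of cells in parentheses), with color on a log10 scale of CPM + 1. Epithelial rows hold every member but Krt5 in the Met-1 transplant, and the T or NK rows stand out for Epcam and Cdh1, at 83 and 84 CPM in the Met-1 transplant and 52 and 40 in the PyMT tumour.

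Nearly all member RNA of the Met-1 T or NK cells was Epcam and Cdh1. Epcam stood at 83.2 CPM (74.9 to 92.2), with a UMI in 164 of 482 cells (34.0%) at a median of 8344 UMIs and an expected 6.93% at 1000 UMIs per cell. Cdh1 stood at 83.9 CPM (75.6 to 92.9), in 213 cells (44.2%, expected 7.51%). Krt8 and Krt18 stood at 0.678 and 1.58 CPM and Cldn3 had 0 UMIs. The fibroblasts of that library, at a median of 15793 UMIs, held Epcam in 1.82% and Cdh1 in 0.455% of cells.

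The mix of members differed from that of the epithelial cells. Epcam was 28.7% and Cdh1 1.92% of member UMIs in Met-1 epithelial cells, but 48.9% (45.3 to 52.6) and 49.3% (45.7 to 53.0) in T or NK cells. Of the 271 T or NK cells with either gene, 106 had both and 8 had a keratin UMI. The most UMIs of Epcam in 1 such cell was 10, so no single cell set the sum. The 47 PyMT T or NK cells were mixed, with 13 UMIs of Epcam, 10 of Cdh1 and 10 of the 6 keratins, these in 8 cells, among 34 member UMIs.

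Among lymphocytes split by lists added after the data had been seen, 145 NK cells stood at 118 CPM of Epcam (100.2 to 137) and 98.0 of Cdh1 (82.3 to 116), and 189 alpha-beta T cells at 28.7 (20.5 to 39.1) and 48.1 (37.3 to 61.1). The 9 gamma-delta T cells stood at 187 CPM (102 to 313) and 147 CPM (73.2 to 262). NK cells were thus higher than alpha-beta T cells in both genes beyond counting error. The 139 T or NK cells in none of these classes stood at 96.3 CPM of Epcam (81.5 to 113) and 100.1 CPM of Cdh1 (85.1 to 117). Such levels were therefore not particular to the cells called NK.

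Itgae, which encodes the CD103 chain of an integrin that binds E-cadherin, was present in 304 of the T or NK cells. These stood at 106 CPM of Epcam and 102 of Cdh1, against 20.3 and 33.8 CPM in the 178 without it, at median depths of 9707 and 6010 UMIs. When the split was made on cells drawn to 1000 UMIs, the 103 cells with Itgae stood at 116 and 114 CPM and the 376 without at 72.8 and 74.6, a smaller gap in the same direction. Of these 376 cells, 199 (52.9%) held an Itgae UMI at full depth. The group without Itgae was thus mixed in this split, which by itself narrows the gap, and the part of depth was not tested. Itgae itself stood at 411 CPM in NK and 124 CPM in alpha-beta T cells, so this split overlaps the one by lymphocyte class. Itgb7, the partner chain of that integrin, went the other way in the Met-1 transplant. It stood there at 103 CPM in cells with Itgae and 145 without, and at 66.3 CPM in NK and 177 in alpha-beta T cells. In the PyMT tumour all 13 Epcam UMIs and 9 of 10 Cdh1 UMIs of the 47 T or NK cells lay in the 23 cells with Itgae, and 7 of the 13 Epcam UMIs in the 9 cells that kept Itgae at 1000 UMIs. Itgb7 did not go the other way in the PyMT tumour, at 172 CPM (112 to 252) in the 23 cells with Itgae and 91.2 CPM (41.7 to 173) in the 24 without. These intervals overlap. Itgae and Itgb7 were chosen after their values had been seen.

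**Figure D5:**
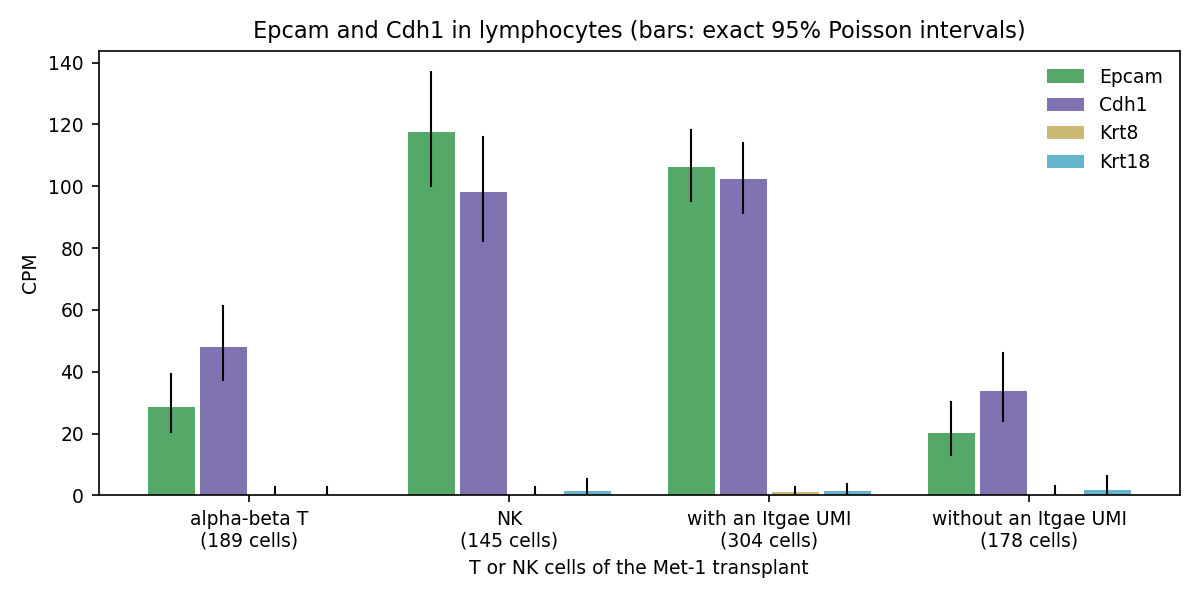
CPM of Epcam, Cdh1, Krt8 and Krt18 in T or NK cells of the Met-1 transplant, for alpha-beta T cells, NK cells, and all T or NK cells with or without an Itgae UMI; bars are sums over cells and lines exact 95% Poisson intervals. Epcam and Cdh1 are at 118 and 98.0 CPM in NK cells and 28.7 and 48.1 in alpha-beta T cells, while both keratins lie near 0.

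Macrophages or monocytes carried Krt18 with little Krt8 in the Met-1 transplant. Krt18 stood at 16.6 CPM (13.5 to 20.1), from 101 UMIs in 57 of 752 cells, of which 49 held no other member, and Krt8 at 1.48 CPM from 9 UMIs. At 1000 UMIs per cell Krt18 is expected in 1.28% of these cells, against 7.58% at their median of 7334 UMIs. The share of Krt8 in the pair was 8.18% (3.81 to 15.0) in these cells and 38.4% in epithelial cells of the same library, so the 2 did not hold the genes in 1 ratio. The richest macrophage held 13 Krt18 UMIs.

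PyMT macrophages gave a different picture: 19 Krt18 and 18 Krt8 UMIs, 14.2 and 13.4 CPM, at most 1 of either per cell. Their Krt8 share of 48.6% (31.9 to 65.6) covered the 49.95% of PyMT epithelial cells. PyMT neutrophils likewise held 6 Krt18 and 7 Krt8 UMIs. The interval of the PyMT macrophages is wide and also covers the 38.4% of Met-1 epithelial cells, while the 11 PyMT fibroblasts held 3 Krt8 and 0 Krt18 UMIs.

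Epcam also appeared in B cells of the Met-1 transplant, with 14 UMIs in 13 of 246 cells (15.5 CPM, 8.46 to 26.0) beside 1 UMI of Cdh1. Met-1 fibroblasts held 16 UMIs of Cldn3, 13 of Krt19 and 7 of Krt7 against 4 of Epcam, at 3.66 CPM for Krt19 and 4.50 CPM for Cldn3. These are low levels, and the 11 PyMT fibroblasts held 7 member UMIs in all.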

How the data were processed

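Single-cell RNA was measured in 2 libraries. The deposited matrices hold whole-number UMI counts per gene and barcode, made by the authors with Cell Ranger 3.1.0 against mm10, per the submitters' processing notes; the captured transcript end and annotation release are not given in the sources used here. Barcodes were kept with at least 500 UMIs, 200 genes and at most 10% mitochondrial UMIs (13 genes), and Scrublet calls (16 and 1) were left out. This kept 2119 of 2451 and 589 of 619 barcodes, with medians of 7706 and 3470 UMIs and totals of 19908483 and 4295404.

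Types were set by the numbers of different markers from 9 lists. UMIs were summed per type and library (CPM, exact Poisson intervals; ratios, exact conditional binomial intervals; shares, exact Clopper-Pearson intervals). A share at 1000 UMIs is the mean over cells of the chance of at least 1 UMI in a draw without replacement. Python 3.11.15, scipy 1.17.1 and scanpy 1.11.5 were used, and counts simulated with known ratios were used to test the scripts.

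The text names all members, the 2 highest and 2 lowest measured genes of each of 8 lists, and the 5 genes most like the luminal keratins and Krt14. Genes outside this rule were named after their values were seen. Members, lists and alternatives were chosen with earlier results of these data known.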

Additional observations from a re-analysis of the deposited data

How the results depend on the processing

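Over 17 other settings (14 planned, 3 added after seeing the data), 122 of 132 main values and 240 of 264 values of single genes and types stayed within the counting interval or 1.5 times the count, and 0 turned a call around. The cause of the other changes was not tested, except where fewer cells or genes enter by construction.

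The basal share of PyMT keratin UMIs was 2.67% when a type needed 3 times as many markers as any other, and 3.12% without the richest basal cell of each library. Counting 2 UMIs as use, a basal keratin is expected at 1000 UMIs in 0.0422% of Met-1 and 3.37% of PyMT cells. With a minimum of 20 UMIs 477 of 7349 genes (6.49%) were higher in the Met-1 transplant and 5.51% lower. With no minimum 612 of the 31054 gene rows were higher, against 262 of 4138 (6.33%) at 50 UMIs. At 20 UMIs, beside the 5.51% of all genes, 2 members were lower, Krt5 joining Krt14, and Krt5 also passed the limit with no minimum. Krt7 passed the limit beside Epcam without the richest cell per gene, and neither did with each cell counting the same. Among these settings the share over all genes in both directions is given only for 20 UMIs. The calls of single members are therefore no result about the group. The log2 ratio of Epcam ran from 0.91 to 1.42 and that of Krt14 from -3.11 to -1.90. Epcam in Met-1 T or NK cells ran from 75.4 to 87.1 CPM, Cdh1 from 75.1 to 88.9, and Krt18 in Met-1 macrophages from 16.4 to 17.4.

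No paired analysis was possible because each tumour has 1 library. The 29 Met-1 epithelial cells and their 756488 UMIs limit what these data can show, and the spread between mice or tumours is not measured.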

Other observations

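Some barcodes held 3 or more epithelial markers but too many markers of another type to be called epithelial, 4 in the Met-1 transplant and 15 in the PyMT tumour. The 15 PyMT barcodes had a median of 24002 UMIs and of 33 member UMIs (0 to 106). Their next type by markers was macrophage or monocyte in 10, T or NK in 2, neutrophil in 2 and dendritic in 1. The 4 Met-1 barcodes had a median of 5635 UMIs and of 10.5 member UMIs (1 to 27), with T or NK next in 2 and macrophage or monocyte in 2.

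Unassigned barcodes of the PyMT tumour, of which these 15 are a part, held 168 UMIs of Krt8, 186 of Krt18, 120 of Epcam, 95 of Cldn3 and 22 of Krt14, the last in 3 of 68 barcodes with up to 14 in 1. Those of the Met-1 transplant held 141 UMIs of Epcam in 37 of 286 barcodes and 43 of Krt18 in 17.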
